A study of Mus musculus with 22 samples.

Results

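Naive CD8+ T cells of mice labelled as a conditional knockout of Tcaim (KO) were compared with naive CD8+ T cells of wild-type (wt) mice by bulk RNA sequencing. The comparison holds 5 of the 22 libraries of the series, chosen by their labels alone: 2 libraries labelled KO and 3 wt libraries, each from 1 mouse. The series also holds knock-in (KI) libraries and cells activated for 24 h or 48 h, of which the 3 naive KI libraries and the 48 h libraries of the same KO and wt mice are used for reference. Cells of spleen and lymph nodes were enriched by the magnetic depletion of other cell types, and the naive cells were sequenced without antibody stimulation. For the 48 h libraries they had been stimulated through CD3 of the T cell receptor complex and through CD28, a costimulatory receptor.

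The mice labelled KO belong to the line Tcaim KO Cd4Cre with the genotype label hocre, were both female, and were handled in experiments 1 and 5. The wt mice belong to another line, Tcaim KI Cd4Cre, with the genotype label wtcre. They were male in experiments 1 and 3 and female in experiment 5. The KI mice are of that same line, with the genotype label hocre. In a Cd4Cre line the recombinase is driven by regulatory sequence of Cd4, which is active in T cell precursors that later become CD4 or CD8 T cells, so a conditional change is made in both T cell lineages. No wt mice of the KO line were analysed here, so genotype, line and, in part, sex cannot be told apart in this comparison. Ages are not given in the sources used here. Genes of chromosomes X and Y were left aside.

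Tcaim encodes a protein of mitochondria named for its link to restrained T cell activation. Mitochondria sit in close contact with the endoplasmic reticulum (ER), where calcium and lipids pass between the organelles, and T cells draw on both when they leave the resting state. Naive CD8+ T cells are small resting cells that carry CD8 and the T cell receptor, are held in lymphoid organs, and express few effector or cell division genes until they meet antigen.

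Counts per library ran from 62551905 to 77871915 in the 5 libraries. Levels are given as CPM (counts scaled to a fixed library total), scaled by library factors from the trimmed mean of M values (TMM). Libraries are listed by experiment, 1 and 5 for those labelled KO and 1, 3 and 5 for wt. Differences are log2 fold changes, labelled KO minus wt, with their standard error (SE), from the edgeR quasi-likelihood F test. A gene was called at a Benjamini-Hochberg adjusted p under 0.05.

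The label of the cells was checked against markers. The 7 markers of CD8 T cells, among them Cd8a and Cd8b1 (both chains of the CD8 coreceptor), summed to 4123 and 6015 CPM in the libraries labelled KO and to between 4837 and 5767 CPM in wt. The library labelled KO of experiment 1 was thus below every wt library and that of experiment 5 above them. Markers of other cells were present in every library, and the 2 libraries labelled KO lay far apart in them. The 17 B cell markers summed to 7967 CPM in the library labelled KO of experiment 1, to 1321 CPM in that of experiment 5, and to between 2236 and 3345 CPM in wt. Cd4 and Zbtb7b, which mark the CD4 lineage, summed to 230 and 20.4 CPM against 31.3 to 67.5 CPM. Markers of NK and innate lymphoid cells summed to 151 and 23.6 CPM against 21.1 to 71.1 CPM, and those of plasma cells to 112 and 14.2 CPM against 31.9 to 43 CPM. Across 12 marker lists of cells other than CD8 T cells, the library labelled KO of experiment 1 was above all wt libraries in 12. That of experiment 5 was below all of them in 5 and above all of them in 2. The 12 include the salivary gland list described below, and some margins were small. In the library labelled KO of experiment 1, stroma and endothelium markers summed to 187 CPM against at most 186 CPM in wt. Platelet markers summed to 8.67 CPM there against at most 8.20 CPM in wt. On the first principal component of the 8 naive libraries, which held 42.4% of the variance over 13552 genes, the library labelled KO of experiment 1 lay at 42.6, that of experiment 5 at -21.8, and the other libraries between -18.2 and 12.8.

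**Figure D1:**
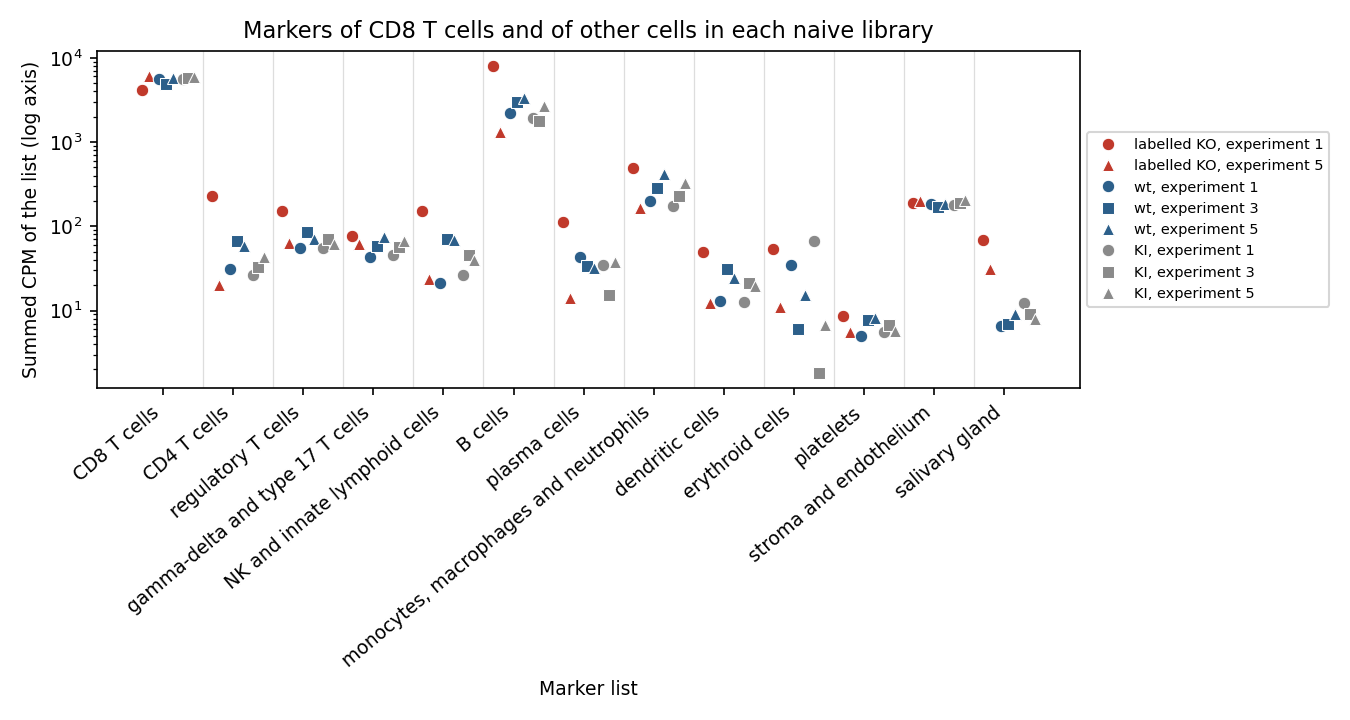
Summed CPM of each marker list (log axis) in the 8 naive libraries, 1 point per library, coloured by group and shaped by experiment. The library labelled KO of experiment 1 has the highest B cell sum, 7967 CPM, and that of experiment 5 the lowest, 1321 CPM.

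Tcaim itself was not lower in the libraries labelled KO. Its level (ENSMUSG00000046603, GRCm38 chromosome 9, 122805539 to 122836334) was 14.9 and 19.6 CPM in the libraries labelled KO and 15.2, 14.6 and 14.7 CPM in wt, so the groups overlapped. The fold change was 0.21 (SE 0.20, 95% interval -0.21 to 0.64), with an adjusted p of 1. It was 0.40 without the library labelled KO of experiment 1 and 0.0041 without that of experiment 5. The 3 naive KI libraries held 138 to 145 CPM. In the same mice at 48 h, Tcaim was at 11.7 and 5.99 CPM in the libraries labelled KO against 9.20, 12 and 9.03 CPM in wt. These counts cover the whole gene, and which exons the conditional allele removes is not given in the sources used here, so they do not check a deletion that leaves a transcript. For that reason the libraries are called labelled KO throughout.

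Of 20241 autosomal genes tested, 2 were called, which is 0.00988%, and both were higher in the libraries labelled KO: Gm15446 and Bpifa2. An unadjusted p under 0.05 was reached by 262 autosomal genes (1.29%), of which 182 were higher (0.899%) and 80 lower (0.395%). The fold change was above 0 in 56.6% of autosomal genes and below 0 in 43.1%, with a median of 0.02. Both libraries labelled KO were above all 3 wt libraries in 5.79% of autosomal genes and below all 3 in 3.92%. With terms for experiment and sex together in the fit, 72 autosomal genes were called, 3 higher and 69 lower. The genes named next are Gm15446 and the 10 higher, Bpifa2 among them, and 10 lower autosomal genes with the smallest p among those at a mean of 1 CPM or more, with a name not of the Gm or Rik type, whose groups did not overlap and whose difference had the same sign in experiments 1 and 5. Lack of overlap was thus part of their choice. Apart from the called genes their adjusted p was 0.15 or above.

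The 60 bases before the RefSeq start (GRCm38.p6) of the called genes, and of Smr3a and Chia1, which follow them among the higher genes, are shown because a salivary secretion gene, Bpifa2, led with Gm15446. All 4 genes lie on the plus strand, and capitals mark TATAA, the core of the TATA box, searched on both strands.
Gm15446, chr5:109933503-109933562: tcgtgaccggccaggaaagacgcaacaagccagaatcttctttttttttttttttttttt
Bpifa2, chr2:154008216-154008275: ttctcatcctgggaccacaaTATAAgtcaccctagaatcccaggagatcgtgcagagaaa
Smr3a, chr5:88002465-88002524: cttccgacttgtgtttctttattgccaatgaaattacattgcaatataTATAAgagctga
Chia1, chr3:106113322-106113381: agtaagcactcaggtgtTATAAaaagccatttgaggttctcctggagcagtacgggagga
The RefSeq starts of Gm15446, Bpifa2 and Chia1 lie inside the gene spans used for the counts. TATAA was present before Bpifa2, Smr3a and Chia1, and was not found before Gm15446. The same letters, on either strand, stood in the 60 bases before the start in 2380 of 32851 RefSeq promoters (7.24%). In Chia1 the letters overlap their own reverse complement. These matches describe the sequence and were not tested as sites.

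Gm15446 had the smallest p of all autosomal genes and was called higher. This protein-coding gene (ENSMUSG00000090015, chromosome 5, 109923400 to 109943936) was at 10.8 and 13.6 CPM in the libraries labelled KO and at 1.38, 1.26 and 1.12 CPM in wt, with means of 12.2 ± 1.95 (SD, n = 2) and 1.25 ± 0.128 (SD, n = 3). Both libraries labelled KO were far above every wt library, and the KI libraries, at 1.10, 1.08 and 1.32 CPM, lay with wt. The fold change was 3.28 (SE 0.24, edgeR adjusted p 1.06e-06). Per transcript length it reached 3.42 and 4.17 FPKM (a level per gene length) in the libraries labelled KO, where Tcaim was at 5.69 and 7.26 FPKM. Gm15446 was also the 1 autosomal gene called at 48 h, at 7.14 and 9.86 CPM against 1.34, 1.21 and 1.84 CPM (2.54, adjusted p 2.49e-05).

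No other gene around Gm15446 stood out. Within 0.5 Mb on either side 34 genes were tested, Gm15446 included, their median fold change was -0.01, and Gm15446 was the only 1 of them with an unadjusted p under 0.05. Zfp932, a zinc finger gene nearby, was at 11.8 and 18.3 CPM against 14.6, 11.3 and 13.2 CPM (0.21, SE 0.28). Of the distinct 75-base windows of Gm15446 transcripts, the read length, 23% also occur in transcripts of other genes, mostly Zfp932, so a part of its count could be shared with that gene. An opposite-strand gene, Gm26808, overlaps 1 of its exons and stayed under 0.4 CPM in all 5 libraries.

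Bpifa2, which encodes a parotid secretory protein of saliva, was the other called gene. Its level (ENSMUSG00000042459, chromosome 2, 154008265 to 154016079) was 41.1 and 15.3 CPM in the libraries labelled KO and 0.786, 0.653 and 2.52 CPM in wt, with means of 28.2 ± 18.2 (SD, n = 2) and 1.32 ± 1.04 (SD, n = 3). All libraries labelled KO were above all wt libraries, and the KI libraries held 4.91, 3.30 and 2.1 CPM, of which the first and second lay between the groups. The fold change was 4.42 (SE 0.66, edgeR adjusted p 0.0110). The call was lost without the library labelled KO of experiment 1 (3.54, adjusted p 0.433), without the wt library of experiment 1 (adjusted p 0.190) or without that of experiment 3 (adjusted p 0.168).

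Smr3a, Chia1 and Amy1 were also among the 10 higher genes. Smr3a (chromosome 5, 88002549 to 88008534), a submaxillary gland protein gene, was at 12.3 and 3.21 CPM against 0.361, 0.208 and 0.602 CPM (4.31, SE 0.83, adjusted p 0.150). It shares 37.9% of its 75-base windows with Gm28434, so counts of that pair are not separate. Chia1 (chromosome 3, 106113229 to 106132120), an acidic chitinase, was at 3.62 and 2.15 CPM against 0.180, 0.148 and 0.475 CPM (3.43, SE 0.66, adjusted p 0.150). Amy1 (chromosome 3, 113555710 to 113606699), salivary amylase, was at 15.6 and 9.43 CPM against 5.38, 6.14 and 5.91 CPM (1.11, SE 0.31, p 0.00214, adjusted p 1) and shares 31.3% of its windows with Rnpc3. Without the library labelled KO of experiment 1 its fold change was 0.70.

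A list of 12 salivary gland genes, which does not hold Chia1, summed to 69.6 and 31.6 CPM in the libraries labelled KO, to between 6.61 and 9.06 CPM in wt and to between 8.04 and 12.4 CPM in KI. Of its members 4 were tested, Bpifa2, Smr3a, Amy1 and Pip. The first 3 were named for lack of overlap and hold most of the sum, so the sum restates them. Pip, a secreted protein of glands, was at 0.541 and 0.475 CPM against 0.0645, 0 and 0.0317 CPM. The remaining 8 did not pass the filter on low counts. Among these the demilune cell and parotid protein genes differed between the libraries labelled KO: Dcpp1 had 6 counts in that of experiment 1 and 182 in that of experiment 5, Dcpp2 had 0 and 14, and Dcpp3 had 0 and 26, with 0 in every wt library. Smgc, Prol1 and Smr2 had 0 counts in all 5 libraries. The B cell list summed to 7967 and 1321 CPM, so its sum and the salivary sum were both higher in the library labelled KO of experiment 1. Against wt, the library labelled KO of experiment 5 was below in B cell markers and above in salivary genes. The part of other cells in the salivary values was not tested. At 48 h the levels of Bpifa2 were 0.0745 and 0.159 CPM against 0.0119, 0.0252 and 0.0268 CPM.

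**Figure D2:**
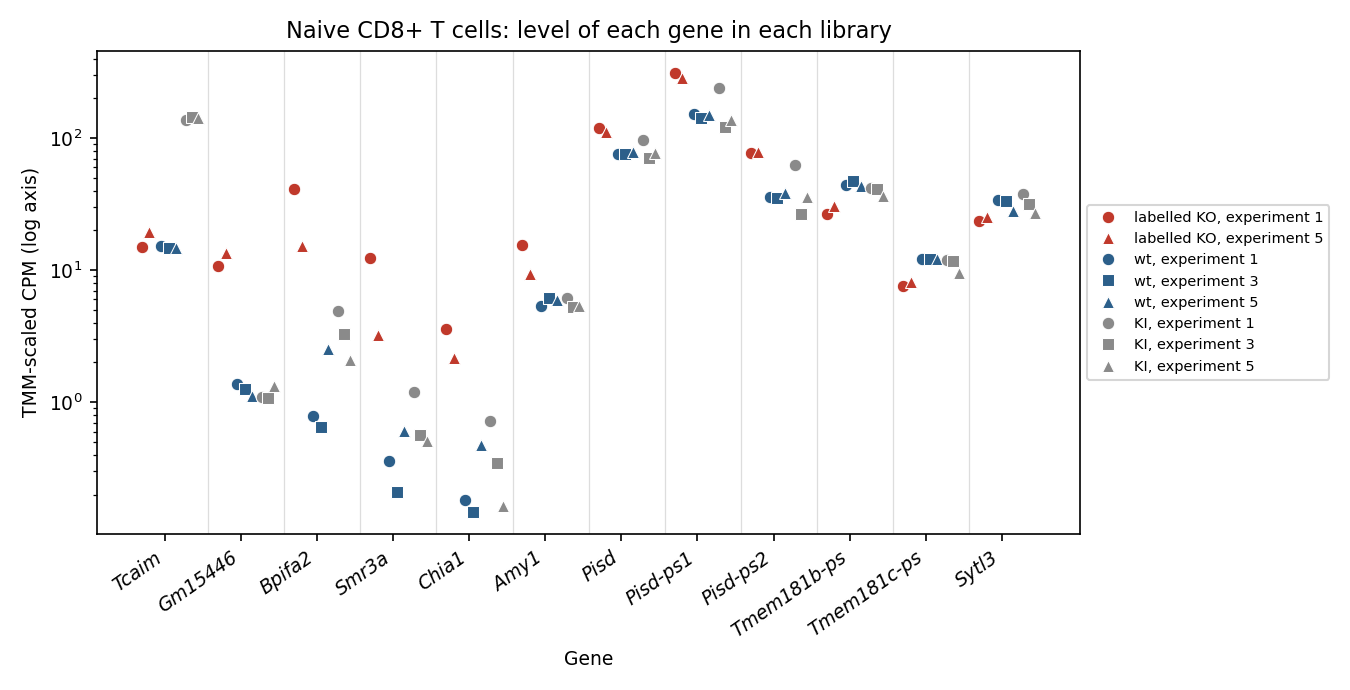
Level of each gene (TMM-scaled CPM, log axis) in the 8 naive libraries, 1 point per library, coloured by group and shaped by experiment. Gm15446 stands at 10.8 and 13.6 CPM in the libraries labelled KO and below 1.4 CPM in all wt and KI libraries, while Tcaim overlaps between labelled KO and wt.

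A family of 3 related genes accounted for 3 of the 10 higher genes. Pisd, which encodes the mitochondrial phosphatidylserine decarboxylase that makes phosphatidylethanolamine (chromosome 5, 32736301 to 32785646), was at 119 and 112 CPM against 75.9, 76.5 and 78.9 CPM (0.58, SE 0.15, p 0.00103). Its pseudogene Pisd-ps1 (chromosome 11, 3125904 to 3131004) was at 313 and 287 CPM against 152, 142 and 151 CPM (1.02, SE 0.32, p 0.00553). Pisd-ps2 (chromosome 17, 3076578 to 3084183) was at 76.6 and 78.3 CPM against 35.8, 35 and 38.7 CPM (1.08, SE 0.32, p 0.00336). The pair labelled KO agreed closely in all 3 genes and stood clear of wt.

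For this family the adjusted p was 1, and only Pisd-ps2, in a fit of the 5 libraries alone, passed the threshold under another setting (adjusted p 0.0496). The KI library of experiment 1 was also above all wt libraries for the 3 genes, at 96.7 CPM for Pisd, 241 CPM for Pisd-ps1 and 63.0 CPM for Pisd-ps2. The other KI libraries held 71.3 and 76.6 CPM for Pisd, 122 and 137 CPM for Pisd-ps1 and 26.8 and 35.9 CPM for Pisd-ps2. At 48 h the fold changes were 0.31 for Pisd, 0.89 for Pisd-ps1 and 1.00 for Pisd-ps2. Exact 75-base windows shared with any other gene made up 2.60% of Pisd-ps1, 4.87% of Pisd-ps2 and 17% of Pisd, the last almost all with the overlapping gene Gm20671.

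Among the lower genes 3 neighbours on chromosome 17 stood together. Tmem181b-ps (6438524 to 6467022), a pseudogene of the membrane protein gene Tmem181a, was at 26.5 and 30.9 CPM against 44.2, 47.7 and 43.6 CPM (-0.66, SE 0.21, p 0.00580). Tmem181c-ps (6613753 to 6639790) was at 7.53 and 8.09 CPM against 12.2, 12.1 and 12.1 CPM (-0.64, SE 0.19, p 0.00404). Sytl3 (6659093 to 6738044), a synaptotagmin-like gene of vesicle traffic, was at 23.5 and 25.4 CPM against 33.9, 33.3 and 28 CPM (-0.38, SE 0.15, p 0.0216). Their adjusted p was 1.

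The stretch from Tulp4 to Tagap1, chosen after these values were seen, held 15 tested genes. In 4 of them both libraries labelled KO were below all wt libraries, against 3.92% of all autosomal genes. Tmem181b-ps, Tmem181c-ps and Sytl3 had been chosen for lack of overlap, so for them the count restates that choice. The fourth was Dynlt1b, a dynein light chain gene, at 1.87 and 3.00 CPM against 4.54, 3.41 and 3.04 CPM (-0.59, SE 0.30). The neighbours Tmem181a, at 12 and 16.2 CPM against 11.9, 12.8 and 11.8 CPM, and Ezr, at 480 and 513 CPM against 469, 476 and 493 CPM, overlapped between groups, and the median of the stretch was 0.05. Of the 75-base windows of Tmem181b-ps 41.1% occur in other genes, mostly Tmem181a, and of Tmem181c-ps 60.6%, so reads could be divided among these copies. Of the windows of Sytl3 18.8% occur in other genes, mostly Gm29719.

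**Figure D3:**
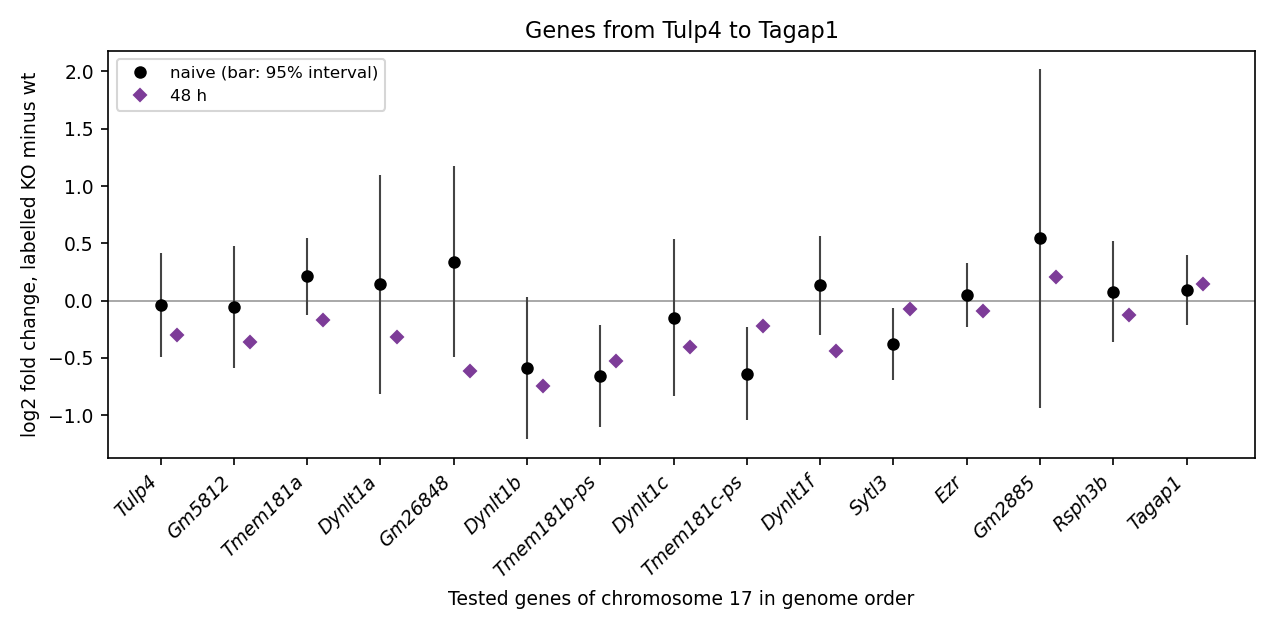
Fold change (log2, labelled KO minus wt) of the 15 tested genes of the chromosome 17 stretch in genome order, with 95% intervals for naive cells and points for 48 h. Tmem181b-ps, Tmem181c-ps and Sytl3 have naive intervals below 0, while Tmem181a and Ezr lie near 0.

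The remaining higher genes were 3 with roles inside the cell. Adss (chromosome 1, 177762962 to 177796511), adenylosuccinate synthase of purine synthesis, was at 100.3 and 128 CPM against 87.8, 75.2 and 79.8 CPM (0.49, SE 0.15, p 0.00318), and its fold change was 0.31 without the library labelled KO of experiment 5. It was at 254 and 273 CPM against 158, 138 and 194 CPM at 48 h (0.69, p 0.000146). Ikzf4 (chromosome 10), an Ikaros family transcription factor, was at 8.25 and 6.36 CPM against 4.36, 5.59 and 3.88 CPM (0.66, SE 0.22, p 0.00805). Wee1 (chromosome 7), a kinase that restrains entry into mitosis, was at 2.85 and 1.90 CPM against 1.11, 1.71 and 1.22 CPM (0.82, SE 0.28, p 0.00863), and its fold change was 0.50 without the library labelled KO of experiment 1. Groups stood apart by little in Ikzf4 and Wee1, and none of the 3 was called.

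Lower genes outside chromosome 17 were mostly at low levels. Trnp1 (chromosome 4), a nuclear protein gene, was at 1.86 and 4.0 CPM against 6.87, 6.96 and 8.33 CPM (-1.34, SE 0.44, p 0.00721). Ighg3 (chromosome 12), the constant region of IgG3, was at 1.19 and 0.391 CPM against 9.46, 1.20 and 7.78 CPM (-2.95, SE 1.00, p 0.00834), so the wt library of experiment 3 differed little from the library labelled KO of experiment 1. Tubb3 (chromosome 8), a beta-tubulin, was at 2.52 and 3.77 CPM against 4.6, 4.76 and 5.34 CPM (-0.64, SE 0.28, p 0.0322). Smoc1 (chromosome 12), a secreted calcium-binding protein, was at 1.09 and 0.0838 CPM against 1.66, 1.78 and 2.44 CPM (-1.72, SE 0.82, p 0.0495). The 2 libraries labelled KO lay far apart in Smoc1: its fold change was -4.52 without that of experiment 1 and -0.84 without that of experiment 5, and with terms for experiment and sex together it was called (edgeR adjusted p 0.0491). Without the library labelled KO of experiment 1 the fold change of Trnp1 was -0.89 and that of Tubb3 -0.38. Smco3 and Prelid2 were at fold changes of -0.78 (SE 0.33) and -0.68 (SE 0.31). Without the terms for experiment and sex none of these was called.

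Beside these genes the gene lists were read by their counts, against the shares of all autosomal genes given above. Genes of effector T cells, which encode cytotoxic granule proteins, chemokines and activation receptors, had 21 of 22 members above 0 and a median of 0.62. The 2 experiments went opposite ways: the median difference between the library labelled KO and the wt library was 2.02 in experiment 1 and -0.41 in experiment 5. Gzma, a granule protease, was at 162 and 32.2 CPM against 16.7, 66.6 and 74.6 CPM, and Gzmb at 40.8 and 10.1 CPM against 6.27, 20.1 and 14 CPM. Il2ra, the alpha chain of the IL-2 receptor and also a marker of regulatory T cells, was the 1 member with an unadjusted p under 0.05, at 17.8 and 4.51 CPM against 4.02, 5.84 and 5.34 CPM (1.14, SE 0.37, p 0.00611). Without the library labelled KO of experiment 1 the list's median was -0.20, and without that of experiment 5 it was 1.21.

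The 2 effector members whose groups did not overlap were Tnfrsf9, a costimulatory receptor, at 15 and 12.8 CPM against 10, 10.1 and 12.3 CPM, and Id2, a regulator of effector fate, at 118 and 127 CPM against 110, 111 and 116 CPM. Genes of memory-phenotype CD8 T cells had 15 of 19 tested members above 0 and a median of 0.34, with 1.49 in experiment 1 and -0.58 in experiment 5. Cd44, the adhesion receptor that separates naive from experienced T cells, was at 62.8 and 15.2 CPM against 16.3, 28.3 and 31.2 CPM (0.63, SE 0.43). Ccl5, a chemokine of memory cells, was at 142 and 33.2 CPM against 22.7, 66.0 and 66.8 CPM (0.76, SE 0.51). The library labelled KO of experiment 1 was the highest of the 5 in 20 of the 22 effector genes and 15 of the 19 memory-phenotype genes, against 4539 of all 20241 autosomal genes.

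B cell markers moved with these lists: 17 of 17 were above 0, with a median of 0.86, of 2.22 in experiment 1 and of -1.78 in experiment 5, and none had groups that did not overlap. Cd74, the invariant chain of MHC class II, was at 1986 and 214 CPM against 408, 673 and 737 CPM, and Ighd at 409 and 48.4 CPM against 92.4, 126 and 157 CPM. Cd4 was at 184 and 16.5 CPM against 24.9, 54.8 and 45.8 CPM, and Ncr1, a receptor of NK cells, at 38.1 and 6.79 CPM against 5.02, 17.9 and 16.8 CPM. The part of these cells in the effector and memory values was not tested. In bulk RNA fewer cells of a type and less RNA per cell cannot be told apart.

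**Figure D4:**
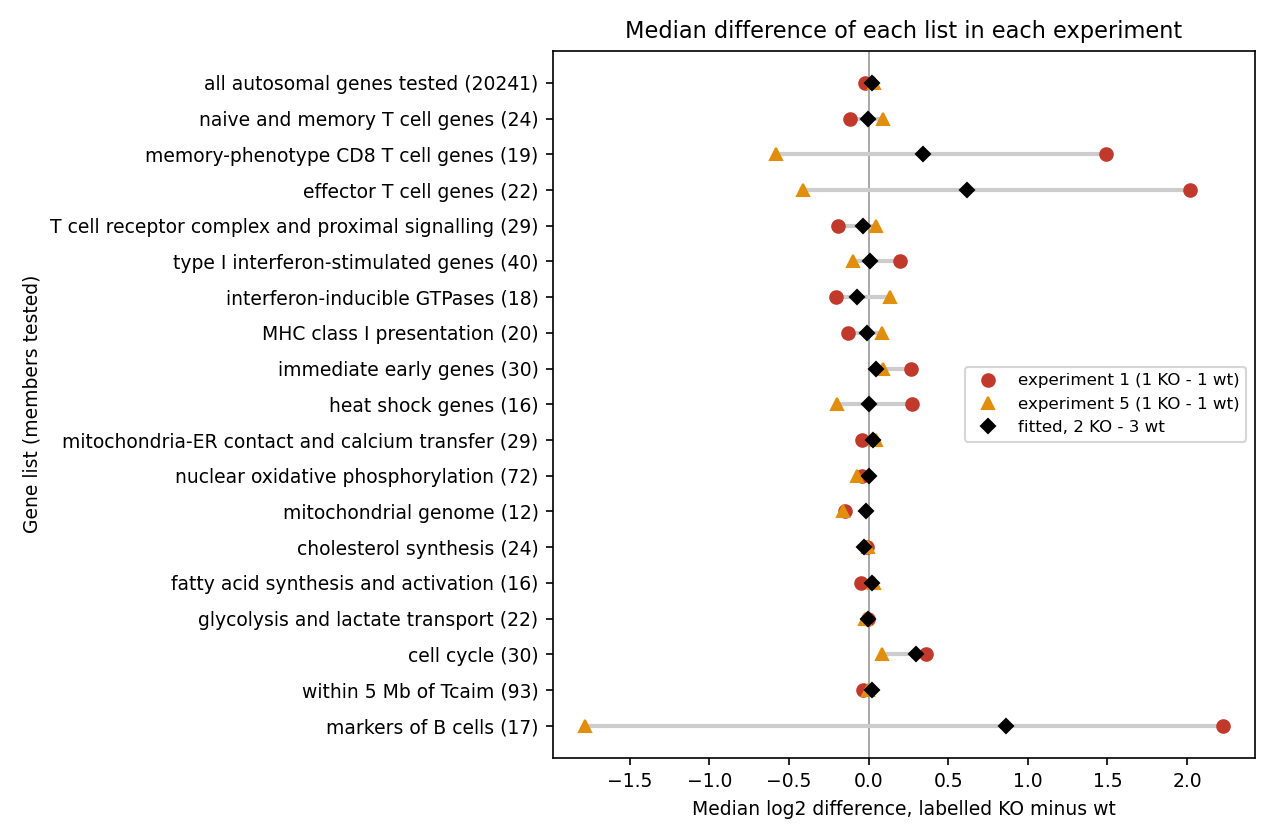
Median log2 difference (labelled KO minus wt) of the members of each list, as fitted (diamonds) and as the difference of single libraries' log2 CPM within experiment 1 (circles) and experiment 5 (triangles). Effector, memory-phenotype and B cell lists lie at 2.02, 1.49 and 2.22 in experiment 1 and below 0 in experiment 5, and most other lists lie near 0 in both.

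Cell cycle genes had 27 of 30 members above 0 and a median of 0.29, with 0.36 in experiment 1 and 0.09 in experiment 5. Of the 30, 5 had an unadjusted p under 0.05, all higher, where 0.899% of all autosomal genes were higher at that p. In 11 both libraries labelled KO were above all wt libraries, against 5.79% of all autosomal genes, but 0 were called by edgeR. The library labelled KO of experiment 1 was the highest in 21 of the 30. Cdk1, the kinase that drives entry into mitosis, was at 4.06 and 2.18 CPM against 1.61, 1.54 and 1.65 CPM (0.97, SE 0.35, p 0.0133). Bub1, a spindle checkpoint kinase, was at 2.19 and 1.27 CPM against 0.786, 0.846 and 1.16 CPM (0.91, SE 0.38, p 0.0287). Ccnb1 (1.19, SE 0.53), Kif11 (0.95, SE 0.42) and Birc5 (0.78, SE 0.37) were the others. In Kif11, a spindle motor, the library labelled KO of experiment 1 was at 9.81 CPM and that of experiment 5 at 4.44 CPM, against 3.82, 3.56 and 3.72 CPM.

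Of the members that act in DNA replication, Pcna, the replication clamp, was at 89.4 and 82.7 CPM against 89.6, 91.9 and 76.3 CPM (0.00, SE 0.26), and Mcm2 to Mcm7, the helicase subunits, ran from -0.01 for Mcm7 to 0.08 for Mcm5. Rrm2, a subunit of ribonucleotide reductase, was at 0.50 (SE 0.41), Tyms, thymidylate synthase, at 0.39 (SE 0.38) and Cdc45, a helicase cofactor, at 0.22 (SE 0.21), with the groups overlapping in each. Without the library labelled KO of experiment 1 the median of the list was 0.06, and without that of experiment 5 it was 0.50. The part of the other cells in that library, whose B cell sum was 7967 CPM, was not tested. Wee1, named above, acts on Cdk1.

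**Figure D5:**
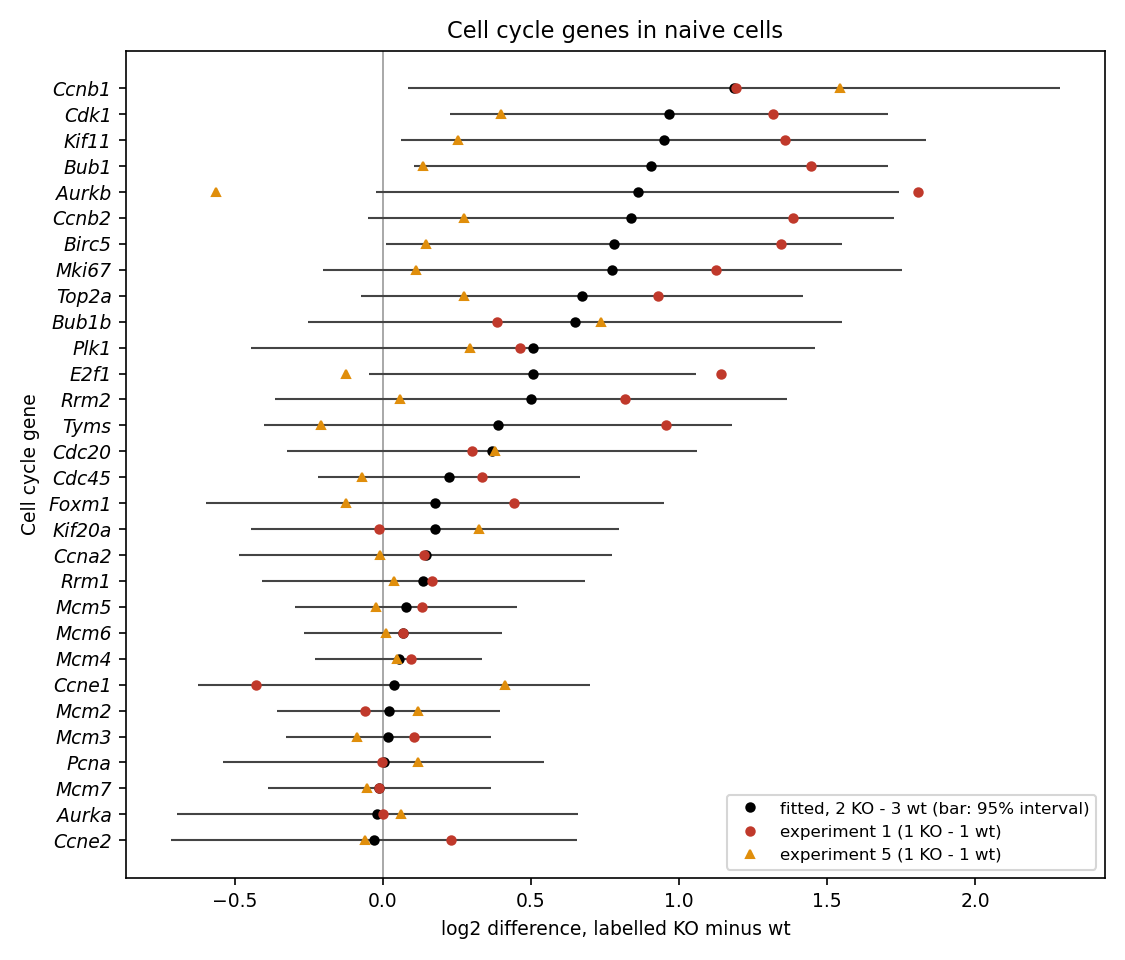
Fold change (log2, labelled KO minus wt) of the 30 cell cycle genes with 95% intervals (black), and the difference within experiment 1 (red circles) and experiment 5 (orange triangles). The 5 genes with intervals above 0 are Ccnb1, Cdk1, Kif11, Bub1 and Birc5, and the Mcm genes lie near 0.

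Type I interferon-stimulated genes, which cells switch on against viruses, had 22 members above 0 and 18 below of 40, with a median of 0.01. Usp18, which removes ISG15 from proteins and restrains interferon signalling, was the 1 member with an unadjusted p under 0.05, at 45.9 and 33.3 CPM against 52.1, 61.6 and 46.2 CPM (-0.43, SE 0.20, p 0.0451). The library labelled KO of experiment 1 and the wt library of experiment 5 were almost equal in it, and its fold change was -0.68 without the library labelled KO of experiment 1 and -0.21 without that of experiment 5. In naive KI libraries Usp18 stood at 161 to 175 CPM. Ifi27l2a was at 101 and 54.5 CPM against 42.9, 50 and 76.5 CPM (0.46, SE 0.24), with the groups overlapping. Of 18 interferon-inducible GTPases 16 were below 0, but their median was -0.07 and 0 had groups that did not overlap. Gbp11 was at 10.1 and 9.92 CPM against 12.9, 15.2 and 9.19 CPM.

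Genes of the contacts between mitochondria and ER and of calcium transfer, which the series title links to Tcaim, had no member past the test. Of 29 tested, 19 were above 0 and 10 below, the median was 0.02, and 0 reached an unadjusted p under 0.05. For all 29 the 95% interval lay within a 2-fold change in either direction, which held for 12055 of the 20241 autosomal genes. Vapb, an ER tether, was at 57.5 and 55.5 CPM against 51.0, 51.2 and 55.3 CPM (0.11, SE 0.13). Mcu, the pore of the mitochondrial calcium uniporter, was at 14.5 and 13.3 CPM against 11.2, 13 and 13.4 CPM (0.16, SE 0.19). Mfn2, which joins the membranes of both organelles, was at 55.0 and 51.0 CPM against 54.5, 52.6 and 52.5 CPM (-0.01, SE 0.13).

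Lists of energy and lipid metabolism had medians near 0 as well. Nuclear genes of oxidative phosphorylation had 39 of 72 above 0, a median of 0.00 and intervals within 2-fold for 70. Cholesterol synthesis had 9 of 24 above 0, a median of -0.03 and intervals within 2-fold for 23. In 5 of its members both libraries labelled KO were below all wt libraries, against 3.92% of all autosomal genes. Among these were Hsd17b7, at 8.79 and 8.36 CPM against 10.6, 12.2 and 8.98 CPM, and Sqle, at 14.6 and 16.1 CPM against 18.3, 18.3 and 17.3 CPM. In 2 members, Sc5d and Pmvk, both libraries labelled KO were above all wt libraries, against 5.79% of all autosomal genes. Glycolysis had 11 of 22 above 0, with Gapdh at 13.8 and 19.4 CPM against 18.3, 18 and 18.6 CPM. Fatty acid synthesis had 10 of 16 tested genes above 0. Its member Scd1, a fatty acid desaturase, was at 251 and 21.3 CPM against 44.3, 85.3 and 86.1 CPM, in the order of the B cell markers. Of 12 tested genes of the mitochondrial genome 3 were above 0, and mt-Nd5, for example, was at 2264 and 3322 CPM against 2992, 2603 and 3574 CPM. In 1 of them, mt-Atp6, both libraries labelled KO were above all wt libraries, with few reads counted, at 0.541 and 0.573 CPM against 0.425, 0.163 and 0.348 CPM. Counts within this genome were very uneven. In the library labelled KO of experiment 1, mt-Co1 was at 7190 FPKM and mt-Co2 at 0.736 FPKM. Sequence shared with other genes was not searched for Gapdh or the mitochondrial genes, so these CPM may not show how much they are expressed. None of these lists held a member with an unadjusted p under 0.05.

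Genes of the T cell receptor complex and its first signalling steps had 8 of 29 tested members above 0 and a median of -0.03, and for all 29 the interval lay within 2-fold. The list shares all 7 CD8 T cell markers. Cd8a was at 853 and 1504 CPM against 1360, 1184 and 1273 CPM (-0.11, SE 0.18), so the library labelled KO of experiment 1 was lowest and that of experiment 5 highest. Ptpn6, a phosphatase that damps receptor signals and is also present in B cells, was at 401 and 301 CPM against 295, 306 and 328 CPM (0.18, SE 0.13). Naive and memory T cell genes had 12 of 24 above 0. Btla, an inhibitory receptor of T and B cells, was at 147 and 84.6 CPM against 95.1, 94.7 and 88.9 CPM (0.32, SE 0.17), and Dapl1, a gene of resting T cells, at 89.1 and 137 CPM against 152, 119 and 139 CPM (-0.27, SE 0.22). MHC class I presentation had 7 of 20 above 0, immediate early genes 19 of 30 and heat shock genes 10 of 16, with medians of -0.01, 0.04 and 0.00. Nr4a1, a nuclear receptor induced by receptor signals, was at 165 and 79.0 CPM against 78.0, 140.1 and 70.0 CPM. None of these 5 lists held a member with an unadjusted p under 0.05.

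Within 5 Mb of Tcaim 93 of 137 genes were tested, of which 54 were above 0 and 39 below, with a median of 0.02. Ccr8, a chemokine receptor, was the 1 with an unadjusted p under 0.05, at 0.757 and 0.335 CPM against 0.116, 0.178 and 0.333 CPM (1.40, SE 0.62, p 0.0370), where the library labelled KO of experiment 5 and the wt library of experiment 5 were nearly equal. The chemokine receptors Ccr9, at 158 and 236 CPM against 204, 201 and 216 CPM, and Cxcr6, at 56.1 and 94.9 CPM against 65.0, 58.1 and 100.5 CPM, overlapped between groups.

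The 48 h libraries of the same mice gave each gene a second value, with different cells measured. They come from the same mice and are no independent support. Among the higher genes Bpifa2 was at 2.42 (edgeR p 0.036), Pisd-ps1 at 0.89 (p 0.0133) and Pisd-ps2 at 1.00 (p 0.00599), while Amy1 was at -0.23 and Wee1 at -0.34. The value of Bpifa2 rests on very low levels, 0.0745 and 0.159 CPM in the libraries labelled KO. Among the lower genes Tmem181b-ps was at -0.53 (edgeR p 0.0213) and Usp18 at -0.76 (p 0.00141), while Ighg3 was at 0.56. The chromosome 17 neighbours of Tmem181b-ps were closer to 0, with Tmem181c-ps at -0.23 (edgeR p 0.255) and Sytl3 at -0.07 (edgeR p 0.642). Apart from Gm15446 no named gene was called at 48 h. At 48 h 1 autosomal gene was called (0.00494%), Gm15446, and 1400 (6.92%) had an unadjusted p under 0.05.

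A test of the difference between the 48 h and naive comparisons called 0 autosomal genes with edgeR (470, 2.32%, at an unadjusted p under 0.05) and 0 with DESeq2 (600 at an unadjusted p under 0.05). Each mouse gave both a naive and a 48 h library, but the fits held no term for the mouse. The pairing within mice was thus not used, which limits what the count of 0 can show. Among the named genes the smallest of these p were 0.00510 for Chia1, 0.00797 for Wee1 and 0.00807 for Amy1. Wee1 was at 10.9 and 21.8 CPM at 48 h in the libraries labelled KO, against 21, 20.1 and 20.8 CPM. Without the mouse labelled KO of experiment 5, 1307 autosomal genes were called in this test, which then rests on 1 mouse labelled KO.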

How the data were processed

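RNA of 22 libraries was sequenced as paired ends from a stranded poly(A) kit, per the labels' protocols. The submitters' processing notes name bcl2fastq 2.20.0, TopHat2 2.1.0, Bowtie2 2.2.5, SAMtools 0.1.19, featureCounts and DESeq2 1.6.3 with GRCm38 (mm10); annotation and strand setting are not given in the sources used here. The authors deposited whole-number read counts per gene, used for all tests. The FPKM values the authors deposited were used only to set levels of different genes side by side and entered no test. Positions and symbols came from the deposited tables or GENCODE M21.

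All 22 libraries were fitted in 8 group means (14 residual degrees of freedom) with edgeR 4.0.16 in R 4.3.3, after filterByExpr (minimum count 10, total 15) and TMM scaling, leaving 21183 genes; p-values were adjusted over all of them. Intervals are 95%. Within-experiment differences used log2 CPM with a prior count of 2. Replicates within a group are single mice. The p-values rest on a spread shared by all 22 libraries, KI and activated cells included, and not on the 5 compared mice alone. Libraries of 1 mouse at different times were treated as independent in that fit, which is a limit of these p-values. The members, lists and rules were chosen with earlier results of these data known. Named genes were Tcaim, called genes, the 10 higher and 10 lower by smallest p without overlap at a mean of 1 CPM or more and with the same sign in experiments 1 and 5 (names not of the Gm or Rik type), and 2 members per list. Of 91 named genes 20 have an exon over another gene. The experiment pairs libraries by the labels. Deviations from group means correlated at 0.40, 0.41 and 0.58 between KI and wt of the same experiment. Between labelled KO and wt of the same experiment they correlated at -0.39 and -0.07, and between labelled KO and KI at -0.19 and -0.20 (14736 genes). These values gave no sign of a shift shared within experiments for the libraries labelled KO. The 2 libraries labelled KO deviate from their mean by exactly opposite amounts, so these values are not independent of each other. Chi-square per degree of freedom between replicates was 28.9 or more, so none was a duplicate. Alternatives were other scaling, filters, library sets, terms for experiment and sex, DESeq2 1.42.0 and leaving out each mouse. The fitting steps were tested on simulated data.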

Additional observations from a re-analysis of the deposited data

How the results depend on the processing

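The count of 2 autosomal genes called in naive cells was 5 with DESeq2, which added Smr3a, Chia1 and Gm28434, 4 with no filter on low counts, 1 in a fit of the 8 naive libraries, and 1 with female libraries only, a setting added after seeing the data. With the replicate block (experiment) it was 2, the same 2 genes, and with the block and sex together it was 72, of which 3 were higher and 69 lower; by construction those terms leave little but experiment 5 to the contrast. The block alone changed no call. Leaving out 1 library gave 1 to 5 genes: 1 without the library labelled KO of experiment 1 or the wt library of experiment 1 or 3, and 5 without that labelled KO of experiment 5. Gm15446 was called under every alternative (adjusted p at most 0.0319). Bpifa2 lost its call in 6 of 17 alternatives, with fold changes of 3.48 or more. For the difference between 48 h and naive, the count of 0 was 0 to 1307 when leaving out 1 mouse, the 1307 (446 higher, 861 lower) without the mouse labelled KO of experiment 5; it was 0 with the replicate block. The 22 genes named as called or by the non-overlap rule, Tcaim included, kept their direction throughout. Of 322 list medians under an alternative, 54 moved by more than the wt spread, 23 of them without 1 of the libraries labelled KO. Upper-quartile scaling shifted the median of all autosomal genes to -0.01 and turned the median of the mitochondria-ER list to -0.0022. Where 1 library labelled KO is left, it is assumed to vary like the other groups. The number of mice labelled KO, 2, limits the precision of every comparison.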

Other observations

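Genes that reached an unadjusted p under 0.05 were spread over the autosomes. Their share of the tested genes ran from 0.494% on chromosome 16 to 1.86% on chromosome 6, against 1.29% of all autosomal genes. Chromosome 9, which holds Tcaim, had 12 of 1124 genes (1.07%), chromosome 5, which holds Gm15446 and Pisd, 17 of 1509 (1.13%), and chromosome 17, which holds Pisd-ps2 and the Tmem181 pseudogenes, 13 of 1006 (1.29%). The 3 erythroid genes Hba-a1, Hba-a2 and Hbb-bs, which encode globins, overlapped between groups: Hba-a1 was at 15.5 and 2.47 CPM in the libraries labelled KO and at 8.20, 1.68 and 3.40 CPM in wt. Pecam1, an adhesion molecule of endothelium and of naive T cells, was at 184 and 197 CPM in the libraries labelled KO against 183, 168 and 179 CPM in wt (0.11, SE 0.15).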
